A study of Mus musculus with 8 samples.

Results

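The renin-angiotensin and kallikrein-kinin genes Agt, Ren1, Ace, Agtr1a, Agtr1b, Agtr2, Bdkrb2, Klk1 and Atp6ap2 were followed in embryonic mouse kidney with and without p53. The 9 genes were taken as a named list, and every non-control array probe whose RefSeq accession maps to one of them was read, which gave 12 probes and at least 1 for each gene. For 6 of the 9 genes a probe was bright enough to be tested, out of 12000 genes tested in all. Null kidneys (genotype p53 null) and control kidneys (p53 wild type) both came from C57BL/6 embryos at embryonic day 15.5, with no other allele or treatment named. Each of 8 arrays carried null RNA in one dye and wild-type RNA in the other, 4 of them with the null RNA in Cy5. The labels describe 3 biological replicates, of which replicate 1 has 4 arrays and replicates 2 and 3 have 2 each. The whole organ was sampled, and the number of embryos behind each RNA and the part of Trp53 that was deleted are not given in the sources used here. Each ratio is log2 of null over wild type, turned for dye, and is given as mean ± SD over replicates (n = 3) unless said otherwise.

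In the renin-angiotensin system the protease renin cuts angiotensinogen to angiotensin I, which angiotensin-converting enzyme trims to angiotensin II, and this peptide acts on AT1 and AT2 receptors. The kallikrein-kinin system runs beside it: tissue kallikrein frees kinins from kininogens, kinins act on the B2 receptor, and angiotensin-converting enzyme also breaks kinins down. In the fetal kidney renin is made along growing arteries and not yet mainly beside the glomerulus, the AT2 receptor is abundant in undifferentiated mesenchyme, and loss of pathway genes such as Agt or Ace disturbs growth of the papilla and of vessels. The B2 receptor gene is known as a p53-responsive gene of the differentiating nephron.

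Trp53, the targeted gene, had ratios of −1.08, −0.47 and −0.45 in replicates 1, 2 and 3 on its brighter probe (adjusted p = 0.279, limma) and a mean of 0.16 on its other probe; whether either lies in the deleted part is not known. By the array barcodes, slide 1 held replicate 1, and slide 2 held replicates 2 and 3. Pearson correlations over probes, which are not independent, were 0.93 within slide 2, and 0.06 (replicate 2) and −0.15 (replicate 3) against replicate 1. On slide 2 the deposited array names number the wild-type RNA 1 in both replicates and the null RNAs 2 and 3. Same-dye wild-type signals of replicates 2 and 3 differed there by an SD of 0.134 and 0.147 (log2, quantile-normalized pairs), less than repeat arrays of replicate 1 (0.178 and 0.189), while null signals differed by 0.209. Whether replicates 2 and 3 share one wild-type RNA is not stated, and p-values that rest on these samples measure a spread that may be technical. Xist was lower in null in every replicate (−2.34, −0.66 and −1.74), and the Y-linked gene Eif2s3y exceeded its wild-type level at least 6.78-fold in replicate 1 and 1.69-fold in replicate 3, while in replicate 2 Eif2s3y was not well above background in either genotype and Xist was in both. Of the kidney identity markers, 12 of 12 were on the array and well above background somewhere, and the 10 tested had a median ratio of 0.02.

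None of the 6 tested members passed the threshold of 0.05 after Benjamini-Hochberg adjustment (limma, adjusted p from 0.396 to 0.998), and 0 had an unadjusted p below it. Over all 20865 tested probes 0 passed, which is 0% called, and 17.2% had an unadjusted p under 0.05. The mean ratios lay between 0.00 and 0.21, with a median of 0.05 against 0.01 over all tested probes. That of Atp6ap2 is no measured difference on slide 2, where its null RNA was not well above background on any array. The direction held in all 3 replicates for 1 of the 6, Ace, where 40.4% of all tested probes kept their sign. For most members the mean over replicates therefore describes no single replicate, and the values are given below by replicate and array. Means near 0 for Ren1 and Atp6ap2 are also those that other background corrections turn negative.

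**Figure D1:**
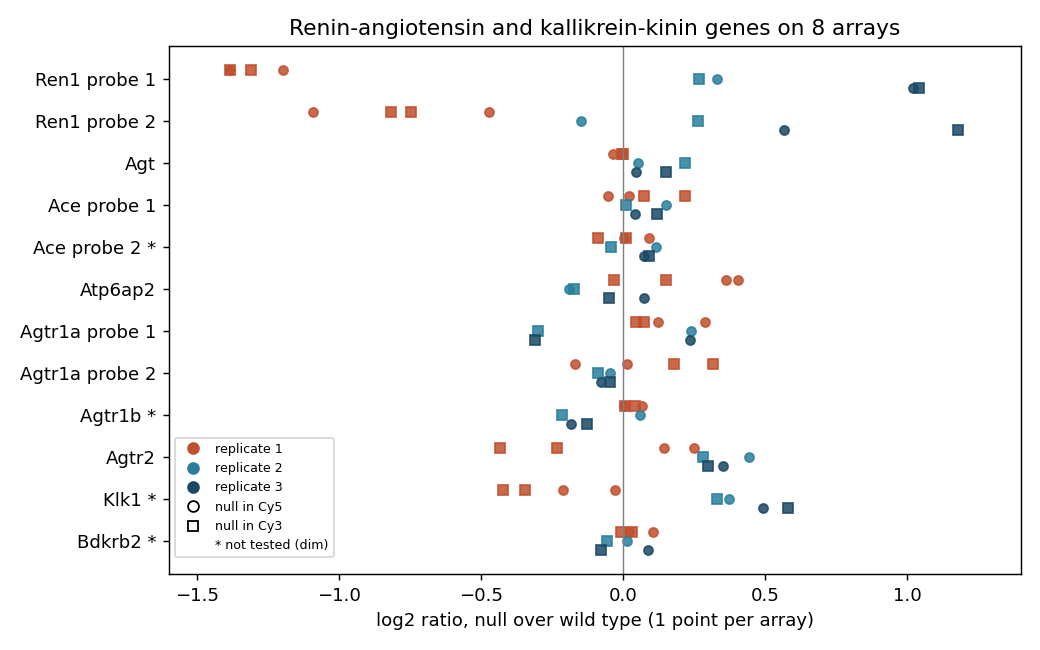
Log2 ratio of null over wild type for each of the 12 probes on each of 8 arrays, 1 point per array, coloured by replicate, with circles for null RNA in Cy5 and squares for null RNA in Cy3. Both Ren1 probes lie below 0 on every array of replicate 1, and Klk1 changes side with the slide, while Agt and the brighter Ace probe stay within 0.25 of 0.

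Ren1, which encodes renin, varied more between replicates than any other member. It was lower in null in replicate 1 and higher in replicates 2 and 3, with ratios of −1.32, 0.30 and 1.03 on the brighter probe (A_51_P316661). On the 4 arrays of replicate 1 the net signal, which is spot brightness minus local background, was 1389.5, 745, 1584.5 and 781 in null and 2543.5, 3910, 2796.5 and 3821 in wild type. The genotypes did not overlap there in either dye, with every wild-type value above every null value. The share of all probes separated in this way was not computed. On the arrays of replicate 2 the net signal was 2079.5 and 757.5 in null against 483.5 and 1038.5 in wild type, and on those of replicate 3 it was 3609 and 1311.5 against 463 and 975. Net signals still carry the dye difference, Cy5 reading brighter than Cy3, so genotypes are compared within a dye or after normalization. By array the normalized ratio was −1.20, −1.38, −1.38 and −1.31 in replicate 1, 0.33 and 0.27 in replicate 2, and 1.02 and 1.04 in replicate 3. On this brighter probe the repeat and dye-swapped arrays of a replicate thus lay within 0.2 of each other, and the replicates lay far apart. Replicate 1 showed 2.49-fold less Ren1 in null, replicate 2 1.23-fold more and replicate 3 2.04-fold more.

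The mean Ren1 ratio was 0.00 ± 1.20 (95% interval −1.31 to 1.32, adjusted p = 0.998, limma), so the interval covers more than a 2-fold change either way. This SD was reached by 0.283% of tested probes. The second Ren1 probe (A_52_P544060) had −0.78, 0.06 and 0.87, a mean of 0.05 ± 0.83 (adjusted p = 0.945, limma), and was below 0 on 1 of the 2 arrays of replicate 2 (−0.15). Its arrays spread more within a replicate, from −1.09 to −0.47 in replicate 1, −0.15 to 0.26 in replicate 2 and 0.57 to 1.18 in replicate 3. The order of the replicates was the same on both probes. Being lower on every array of replicate 1 and higher on every array of slide 2 was met by Ren1 alone of the 6 tested members, and by 11.2% of all probes with a value on every array. Without replicate 1 the brighter probe gave 0.67 (adjusted p = 1.1e-06, limma) and the second 0.47 (adjusted p = 0.00032), without replicate 3 the brighter gave −0.51 (adjusted p = 0.903), and without replicate 2 it gave −0.14 (adjusted p = 1). With slide as a fixed block, where the spread comes from replicates 2 and 3 alone, the ratio was −0.33 and passed in the other direction (adjusted p = 0.0026, limma). Ren1 was the 1 of 6 members called in that fit, which called 19.9% of all probes higher and 21% lower in null. The setting with 1 value per slide gave Ren1 the same −0.33 with an adjusted p of 1.0, and called 0 probes, with 522 at an unadjusted p under 0.05 (limma).

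The split between replicates lay on both sides of the ratio. For levels the normalized arrays were also set to the same distribution of mean brightness. The wild-type level of Ren1 was then 11.28 (log2) in replicate 1 and 10.17 and 10.14 in replicates 2 and 3. The null level was 9.96, 10.47 and 11.17. The wild-type level was thus highest on slide 1, and the null level lowest there. Before the arrays were set to the same distribution, the mean brightness of the Ren1 probe differed by −0.80 (log2), slide 2 minus slide 1. This was near the median of −0.72 over all tested probes. Levels compared across slides thus rest on that step, and slide and replicate cannot be told apart in them. Over the other backgrounds, normalizations, data sources and dyes the replicate ratios stayed between −1.48 and −1.29, 0.27 and 0.69, and 1.02 and 1.50. The sign of each replicate held under each of them. RNA of a whole organ cannot tell fewer renin-making cells from less Ren1 RNA per cell, which applies to every ratio here.

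The stretch before the Ren1 start is shown since it is the promoter of the member with the widest spread. It covers chr1:133350554-133350673 (GRCm38.p6, plus strand), the 120 bases before the RefSeq start:
Ren1: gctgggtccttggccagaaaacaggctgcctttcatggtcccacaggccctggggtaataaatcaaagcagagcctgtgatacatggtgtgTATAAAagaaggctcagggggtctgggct
Capitals mark the TATA box letters TATAAA, which start at position −29 from the start, in sequence read from RefSeq. Of the motifs searched on both strands of the 250 bases before each start, TATAAA was present in 12.4% of 32851 windows. Promoters of 8 of the 9 members were matched, in 9 windows. TATAAA was also found for Agt, Agtr1b and the first of the Ace windows. The cAMP response element half-site TGACG, present in 17.8% of windows, was found for Atp6ap2 alone among them, and the p53 half-site consensus, present in 7.13%, for Agtr1b alone, as AGGCAAGCCC at −79. None of these motifs overlapped another, and a match is no evidence of binding.

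Among the 17 genes listed for control of the renin gene and of renin release, 12 were tested, 5 with a higher and 7 with a lower mean in null (median −0.10); 0 passed the threshold and 1 had an unadjusted p under 0.05. Foxd1, a factor of the stromal progenitors from which renin cells descend, had 0.13, −0.56 and −0.92, and Gnas, which encodes the G protein that raises cAMP, had −0.68, −0.29 and 0.04 (adjusted p = 0.357 and 0.366, limma). Ptgs2 and Nos1, macula densa enzymes, were never well above background.

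Markers of the vessel wall and renin lineage were read beside Ren1. All 8 listed markers were tested, 4 with a higher and 4 with a lower mean, and their median was −0.37, 0.12 and 0.47 in replicates 1, 2 and 3. The contractile genes of the list had the order of Ren1: Acta2 with −0.52, 0.02 and 0.41, Myh11 with −0.66, 0.22 and 0.81, and Cnn1 with −0.80, 0.57 and 0.80. Akr1b7, an enzyme made in renin cells, had −0.08, 1.45 and 1.72. Not all mural markers had this order: the pericyte genes Pdgfrb and Cspg4 had −0.02, −0.52 and −0.56, and −0.22, −0.85 and −0.73. Mcam, with −0.17, 0.29 and 0.53, and Rgs5, with −0.56, −0.01 and 0.02, did have it. The order was not particular to the vessel wall. Replicate medians of proximal tubule markers (−0.18, 0.66 and 0.90) and endothelial markers (−0.01, 0.37 and 0.49) had it. So did those of kidney identity, collecting duct and stromal markers, while those of liver and adrenal markers did not. The share of all probes with this order was not computed. Myh11, Cnn1, Akr1b7, Cspg4 and Rgs5 were chosen after their values were seen, 0 of the 8 passed, and the part of vessel wall content in the Ren1 values was not tested. In ratios over the 8 arrays the closest probe to Ren1 was that of Ren2 (root mean square difference 0.129), with −1.23, 0.39 and 0.97. Ren2 is a renin gene copy nearly identical to Ren1 that some mouse strains carry and C57BL/6 lacks, so its probe and those of Ren1 cannot be taken as separate genes here.

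**Figure D2:**
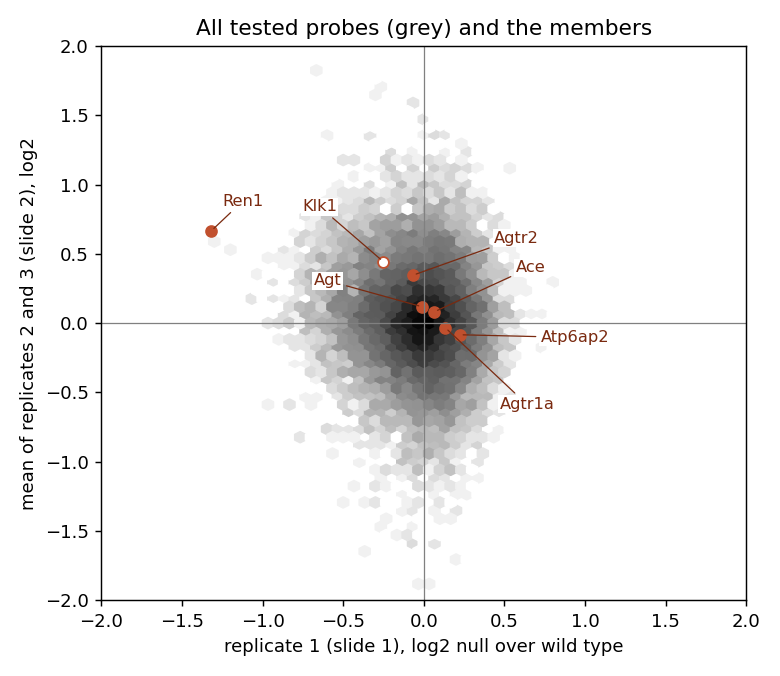
Ratio in replicate 1 (horizontal, slide 1) against the mean of replicates 2 and 3 (vertical, slide 2), both log2 null over wild type, with all tested probes in grey (log count) and 7 members as points; the open point, Klk1, was not tested. Ren1 lies at −1.32 and 0.67, at the edge of the grey cloud, and the other tested members lie within 0.4 of 0 on both axes.

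Agt, which encodes angiotensinogen, the substrate of renin, was dim, and the size of its ratio depended on the processing. The net signal in replicate 1 was 25, 14, 24.5 and 13.5 in null and 19, 27, 17.5 and 25.5 in wild type. It was 32.5 and 17 in null against 10.5 and 10 in wild type in replicate 2, and 29.5 and 20 against 9 and 14.5 in replicate 3. Compared within each dye before normalization, null lay below wild type in replicate 1 and above it on slide 2. How many of all probes separate like this was not computed. Null RNA was well above background on 8 of 8 arrays and wild-type RNA on 6. The ratios of −0.01, 0.14 and 0.10 gave 0.08 ± 0.08 (95% interval −0.13 to 0.28, adjusted p = 0.601, limma), no larger than the spread between replicates. Of the 8 liver markers, a tissue rich in Agt, 4 were tested and had replicate medians of −0.03, 0.97 and 0.59, with Afp at −0.42, 1.83 and 1.69; 2 were never well above background, and the part of liver RNA in the Agt value was not tested.

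Ace, the converting enzyme made mainly by endothelium and brush border, was the one member with the same sign in every replicate. In replicate 1 the brighter probe (A_52_P68028) had net signals of 72.5, 34.5, 61 and 41 in null and 43, 46, 47 and 71 in wild type. Within a dye the genotypes overlapped there in Cy5, and null lay below wild type in Cy3. The net signals were 53.5 and 23 against 13.5 and 32 in replicate 2, and 83 and 34 against 24 and 34.5 in replicate 3. The ratios were 0.07, 0.08 and 0.08, a mean of 0.08 ± 0.009. That spread is small beside the spread between single arrays, which ran from −0.05 to 0.22, and the moderated interval was −0.11 to 0.26 (adjusted p = 0.564, limma). The mean was 0.12 with an offset of 16 and 0.26 with the scanner program's processed signals (adjusted p = 0.491 and 0.338, limma). The second Ace probe (A_52_P72297) was never well above background. Endothelial markers, 9 of 9 tested with 6 higher and 3 lower, had replicate medians of −0.01, 0.37 and 0.49, and proximal tubule markers, 8 of 10 tested, −0.18, 0.66 and 0.90, larger shifts on slide 2 than that of Ace; their part in the Ace value was not tested.

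Atp6ap2, the prorenin receptor, which is also an accessory subunit of the vacuolar proton pump, was measured well on slide 1 only. There the net signal was 1283.5, 286, 1138.5 and 605 in null and 623, 584.5, 592 and 1049 in wild type, well above background on all 4 arrays in both genotypes. On slide 2 it was 8, 7.5, 21 and 10.5 in null and 10.5, 19.5, 6 and 14 in wild type. Slide 2 minus slide 1, the mean brightness of the probe differed by −3.54 (log2), a drop met or passed by 1.08% of tested probes. On slide 2 null RNA was well above background on 0 of 4 arrays and wild-type RNA on 3 of 4. The ratios were 0.22, −0.18 and 0.01, a mean of 0.02 ± 0.20 (95% interval −0.27 to 0.30, adjusted p = 0.937, limma). The probe met the brightness filter through wild type alone, so its sign on slide 2 was tied to the filter. Since the slide 2 readings were near background, the interval is no bound on the difference. In replicate 2, where wild-type RNA alone was above background, its reading was 1.13-fold that of null. This is the plain ratio to a dim null reading and no bound. The sign of the mean turned with the offset, background and centring, so no direction is given.

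**Figure D3:**
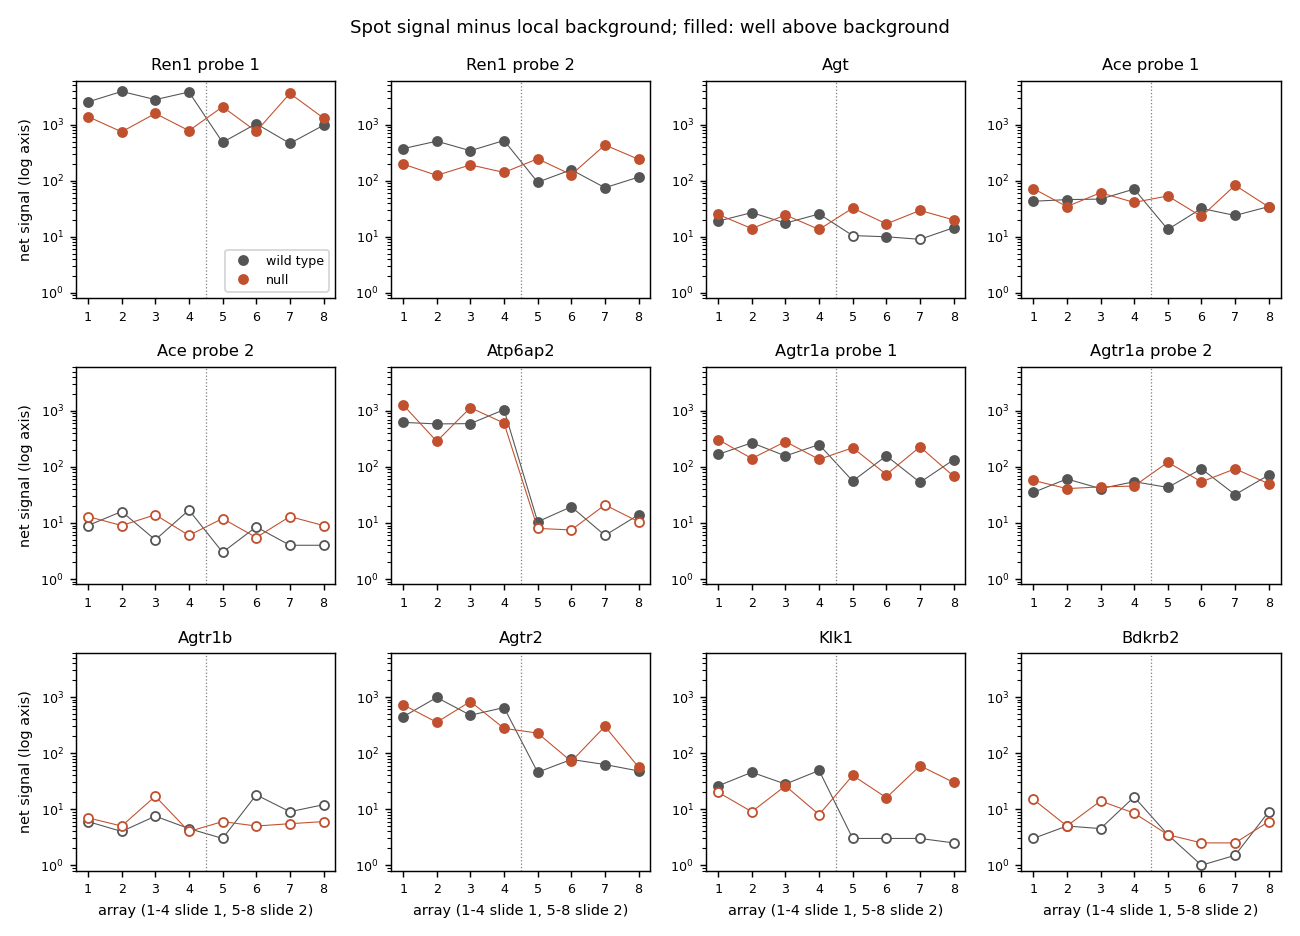
Net signal (spot minus local background brightness, log axis; values under 1 are drawn at 1) of each of the 12 probes on arrays 1 to 8, null in orange and wild type in grey, with filled points well above background; the dotted line parts slide 1 from slide 2. Atp6ap2 falls from at least 286 to at most 21 between the slides, Klk1 in wild type from at least 26 to at most 3, and Agtr1b and Bdkrb2 are open on every array.

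Among the receptors, Agtr2, which encodes the AT2 receptor, had the tested mean farthest from 0. The net signal in replicate 1 was 729, 355, 832.5 and 276 in null and 444.5, 982, 474 and 649.5 in wild type. It was 227.5 and 71 in null against 45.5 and 77 in wild type in replicate 2, and 299.5 and 56 against 62.5 and 48 in replicate 3. Within a dye and before normalization, the genotypes of replicate 1 overlapped in Cy5, and null lay below wild type in Cy3. Null lay above wild type in both dyes in replicate 2 and in Cy5 alone in replicate 3. Both genotypes were brighter on slide 1. Slide 2 minus slide 1, its brightness differed by −2.15 (log2), a drop met or passed by 5.98% of tested probes. In replicate 1 the ratio followed the dye, at 0.14 and 0.25 with null in Cy5 and −0.43 and −0.23 with null in Cy3, and averaged −0.07. On slide 2 it was 0.45, 0.28, 0.35 and 0.30, above 0 in both dyes, which gave 0.36 and 0.33 for replicates 2 and 3. The mean was 0.21 ± 0.24 (95% interval −0.11 to 0.52, adjusted p = 0.396, limma), within the spread between replicates.

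Without replicate 1 Agtr2 had 0.35 and passed (adjusted p = 0.00010, limma), as did Ren1, so 2 of the 6 tested members were called, both higher in null. Over all probes this setting called 30.8% higher and 25.3% lower in null. The 2 of 6 members called higher are a share near that of all probes called higher, and 0 of 6 were called lower. This fit rests on the replicates with the close wild-type signals noted above. Agtr2 and Atp6ap2 are X-linked, and the part of embryo sex in their values was not tested. By ratio over the 8 arrays the probes closest to Agtr2 were those of the proteasome subunit gene Psma2, of Zfp617 and of the respiratory chain subunit gene Uqcr10, with root mean square differences of 0.079, 0.099 and 0.102.

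Agtr1a, which encodes the main AT1 receptor of the mouse kidney, had a mean near 0 on both probes. The brighter probe (A_52_P645862) was well above background on 8 of 8 arrays in both genotypes, with net signals of 68 to 307.5 in null and 53 to 269 in wild type. Its ratios by replicate were 0.13, −0.03 and −0.04, a mean of 0.02 ± 0.10 (95% interval −0.19 to 0.23, adjusted p = 0.890, limma). On slide 2 the arrays read 0.24 and 0.24 with null in Cy5 and −0.30 and −0.31 with null in Cy3. The replicate means near 0 are thus averages of opposite dye readings, and the mean was 0.23 with null in Cy5 alone (adjusted p = 0.188, limma) and −0.18 with null in Cy3 alone (adjusted p = 0.447, limma). The other probe (A_51_P236439) had 0.09, −0.07 and −0.06, a mean of −0.01 ± 0.09 (adjusted p = 0.931, limma). The interval leaves room for a difference of up to its bounds, which 3 replicates could not detect.

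Agtr1b, the second mouse AT1 receptor gene, and Bdkrb2, which encodes the B2 kinin receptor, were not well above background on any of the 8 arrays in either genotype. Net signals of Agtr1b lay between 3 and 18, and those of Bdkrb2 between −1 and 16.5. Their ratios, −0.07 ± 0.09 and 0.01 ± 0.03, compare 2 readings at background and were not tested. A dim probe has only a bound on its level, so these arrays do not show whether the receptors were transcribed. Of all probes 32.4% were never well above background.

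Klk1, which encodes tissue kallikrein, was dim, and the genotype in which it was better detected differed between the slides. The net signal in replicate 1 was 20, 9, 26 and 8 in null and 26, 45.5, 28 and 49 in wild type, well above background on 1 of 4 arrays for null and 4 of 4 for wild type. On slide 2 it was 40, 16, 59.5 and 30 in null and 3, 3, 3 and 2.5 in wild type, well above background on every array for null and on none for wild type. Within a dye, null lay below wild type in replicate 1, at 20 and 26 against 45.5 and 49 in Cy5, and 9 and 8 against 26 and 28 in Cy3. On slide 2 null lay above wild type in both dyes. Here too the share of all probes with such a separation was not computed. The ratio was −0.03, −0.34, −0.21 and −0.42 on the arrays of replicate 1, and 0.37, 0.33, 0.49 and 0.58 on those of slide 2. Null stood 1.28-fold above the dim wild-type reading in replicate 2 and 1.45-fold above it in replicate 3. These are the plain ratios, since that reading was no lower than the lowest probe well above background.

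By replicate Klk1 had −0.25, 0.35 and 0.54, a mean of 0.21 ± 0.41. It was left out of the test because neither genotype was bright in every replicate; with a filter that either genotype could meet in each replicate, chosen after the data were seen, its adjusted p was 0.543 (limma). The offset added to dim signals shrinks these ratios: with an offset of 16 in place of 50 they were −0.44, 0.71 and 1.03, and the scanner program's processed signals gave −1.32, 3.05 and 3.63. Over all settings of background, normalization, source and dye the replicate ratios ran from −1.32 to −0.12, from 0.33 to 3.05 and from 0.49 to 3.63. The sign of each replicate was thus the same in each setting, and the size of the ratio is not known. Klk1 and Ren1 are the 2 members below 0 on each array of replicate 1 and above 0 on each array of slide 2.

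The stretch before the Klk1 start is printed beside that of Ren1, since both had the same signs on each slide. It covers chr7:44225240-44225359 (GRCm38.p6, plus strand), again 120 bases, and none of the 3 motifs searched was found in it or in the rest of its 250-base window, so it has no capitals:
Klk1: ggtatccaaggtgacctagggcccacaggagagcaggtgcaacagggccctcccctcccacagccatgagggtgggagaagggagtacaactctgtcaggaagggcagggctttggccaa
The mouse genome holds many close copies of Klk1 beside it. Of 13 such Klk1b genes, 11 were on the array, 7 were never well above background and 0 were bright enough to be tested. Klk1b3 and Klk1b4 were above background in at most 9 and 8 of 16 readings, and signal from copies on the Klk1 probe was not tested.

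The other genes of the 2 systems were read from lists, of which 0 members passed the threshold over all probes (limma). For angiotensin processing 13 of 14 genes were tested, 6 with a higher and 7 with a lower mean in null, with a median of −0.12 and 5 with an unadjusted p under 0.05. Above 0 were the mast cell proteases Cpa3 (0.42 ± 0.13) and Cma1 (0.59 ± 0.45), the latter a chymase that makes angiotensin II without Ace, with ratios of 0.37, 0.57 and 0.33, and 0.24, 1.10 and 0.43. Both were well above background on 8 arrays in null but on 4 in wild type, all of slide 1, so their ratios on slide 2 are set against dim readings. Against those readings null stood 1.49-fold and 1.26-fold higher for Cpa3 in replicates 2 and 3, and 2.14-fold and 1.35-fold higher for Cma1. These values restate the ratios and are no separate bounds. Below 0 were the aminopeptidase gene Anpep (−0.20 ± 0.06) and the cathepsin gene Ctsa (−0.34 ± 0.26), both named after their values were seen. These 4 genes kept their sign in the 3 replicates, with adjusted p from 0.279 to 0.289 (limma). Cpa3 and Cma1 met the brightness filter through null alone, so their sign on slide 2 was tied to the filter and is no support.

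For angiotensin receptors and signalling 9 of 13 genes were tested, 5 with a higher and 4 with a lower mean (median 0.10). Rgs2, which damps signalling through the AT1 receptor, had 0.30, 0.50 and 0.40, a mean of 0.40 ± 0.10 and the one unadjusted p under 0.05 of this list (adjusted p = 0.279, limma). Agtrap, a protein that binds the AT1 receptor and takes it off the surface, had −0.19 ± 0.16, and Gnaq, the G protein alpha subunit gene downstream of it, had 0.11 ± 0.09. Mas1, which encodes another angiotensin peptide receptor, was never well above background. Rgs2 thus lay above 0 in each replicate while Agtr1a averaged 0.02.

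In the kallikrein-kinin list 6 of 10 genes were tested, 1 with a higher and 5 with a lower mean (median −0.11), and 1 had an unadjusted p under 0.05. That was Cpm, a membrane carboxypeptidase that trims kinins, with −0.13, −0.77 and −0.73 (−0.54 ± 0.36, adjusted p = 0.279, limma). Prcp, which cleaves angiotensins and activates plasma prekallikrein, had −0.14 ± 0.26, and Serping1, the inhibitor of plasma kallikrein, had −0.20 ± 0.46. The kininogen gene Kng2, the prekallikrein gene Klkb1 and the factor XII gene F12 were never well above background, and Bdkrb1, the inducible kinin receptor gene, had −0.04 ± 0.07. On the aldosterone axis 3 of 6 genes were tested, all with a mean above 0 (median 0.18) and 0 with an unadjusted p under 0.05. The kinase gene Sgk1 had 0.00, 0.68 and 0.74, the sodium channel subunit gene Scnn1a −0.22, 0.36 and 0.41, and Hsd11b2, which shields the mineralocorticoid receptor from glucocorticoids, −0.36, 0.28 and 0.35. Collecting duct markers, 8 of 8 tested, had replicate medians of −0.32, −0.16 and 0.03, stromal markers, 7 of 7 tested, −0.32, −0.31 and −0.27, and adrenal markers, 3 of 10 tested, 0.07, 0.41 and 0.36; their part in these values was not tested.

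**Figure D4:**
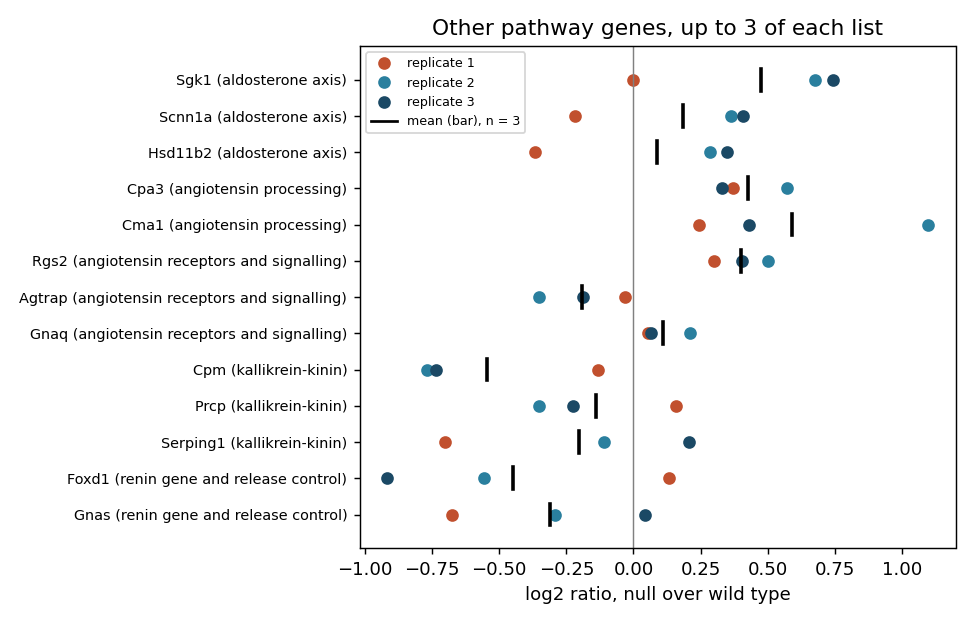
Log2 ratio of null over wild type in each replicate (points) and the mean (bar, n = 3) for up to 3 tested genes, by smallest p, of each of 5 pathway lists. Rgs2 (mean 0.40), Cpa3 (0.42) and Cma1 (0.59) lie above 0 and Cpm (−0.54) below 0 in all replicates, while the 3 aldosterone axis genes lie above 0 on slide 2 alone. Wild-type RNA of Cpa3 and Cma1 was not well above background on slide 2.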

How the data were processed

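Median spot and background brightness, as linear intensity, come from the deposited scanner files; per the file headers the program was Agilent Feature Extraction 10.5.1.1, while the submitters' processing notes give 6.1. The deposited table holds log10 ratios equal to the program's log ratio with the sign of null over wild type (correlation 1 for every array; column medians 0.0083, −0.0024, 0.0042, 0.0015, 0.00083, 0.0064, 0.0064 and 0.011). The program's processed signals and flags are in the same deposited files. The median signal was used since no mean is in the files. Background was corrected by normexp (offset 50), and each array by loess with 1639 control spots at weight 0 (limma 3.58.1, R 4.3.3). Spots flagged as outliers (0.433%) were set missing, and 0 were saturated. Ratios were averaged within each dye orientation, then over both, per replicate. Of 41174 probes 20880 were kept, where 1 and the same genotype was well above background in each replicate on 50% of arrays or more, and 20865 were tested against 0 with lmFit and eBayes, two-sided, with Benjamini-Hochberg adjustment over all of them. With 3 replicates the smallest p of an exact sign permutation is 0.25. Levels and bounds used arrays set further to the same distribution of mean brightness (limma, Aquantile). A bound ("at least") sets the bright mean against the higher of the dim probe and the lowest probe well above background per array. Where the dim probe is the higher, as for Eif2s3y in replicate 3, the bound equals the plain ratio.

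Probes were named through RefSeq accessions (25097 of 41174) in the GRCm38.p6 table, and a gene by its brightest kept probe. All members are named with every probe, then 3 genes per pathway list by smallest p, 3 per marker list by brightness, Trp53 and 3 genes nearest to the member farthest from 0. A few of these are left unreported but stay in every count and test. The same likeness was computed for Ren1 after the data were seen. The members, lists and rules were chosen with earlier results of these data known. On simulated data at this spread, 4 of 50 changes of 1.5-fold and 25 of 50 of 2-fold were recovered. For 4-fold and for 8-fold it was 42 of 50 each, with 2 false calls. The simulated replicates were independent, while replicates 2 and 3 correlate at 0.93 over probes, so these shares do not describe this design.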

Additional observations from a re-analysis of the deposited data

Results flagged for a closer look

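Both results below are listed because every array of slide 1 lay below 0 and every array of slide 2 above it, as for 11.2% of all probes with a value on every array; the difference between the slides was not tested, and slide, replicate and RNA cannot be told apart. For Ren1 (brighter probe) slide 2 minus slide 1 was 1.98 on the log2 scale; the second Ren1 probe did not have this pattern, with −0.15 on 1 array of slide 2. For Klk1 it was 0.695, with wild-type RNA on slide 2 and most null readings on slide 1 not well above background. None of the 12 probes had a single array far from the rest.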

How the results depend on the processing

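Leaving out 1 replicate gave from 0 to 11699 probes and from 0 to 2 members past the threshold, in each case the upper value without replicate 1, and a median ratio of the tested members from 0.058 to 0.099. Slide as a fixed block gave 8521 probes and 1 member, while 1 value per slide gave 0 of both; the single arrays with replicate as a random effect (correlation 0.545) gave 965 probes and 0 members. The median of the members was 0.147 with the program's processed signals and with the deposited table, and 0.150 with median centring, which also moved the median of all tested probes to 0.12 from 0.01. The cause of these shifts was not tested. Ren1 turned negative without background correction (−0.012), with slide as a block and with 1 value per slide (−0.33 in both), with the random effect (−0.068) and with null in Cy3 alone (−0.013), and ranged from −0.51 to 0.67 when a replicate was left out. Atp6ap2 turned negative with an offset of 16 (−0.031), without background correction (−0.011), with processed signals and the deposited table (−0.40 in both), with median centring (−0.060) and with null in Cy3 alone (−0.054), and ranged from −0.084 to 0.12 over left-out replicates. Agtr1a had 0.23 with null in Cy5 alone, turned negative with null in Cy3 alone (−0.18), and ranged from −0.033 to 0.052. Agt, Ace and Agtr2 kept their direction in every setting in which they were tested, and of these Agtr2 passed the threshold in 1, without replicate 1. Their means were larger with processed signals, at 0.31, 0.26 and 0.36. The test is already paired, because each array compares both genotypes of 1 replicate and the 3 replicate ratios are tested against 0. If replicates 2 and 3 share the same wild-type RNA, which is not stated, their ratios are not independent pairs. Brightness over background limits Agt and Klk1 and leaves Agtr1b and Bdkrb2 unmeasured.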
